A study of Rattus norvegicus with 22 samples.

Results

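Voltage-gated calcium channels were followed through 10 of their subunit genes, Cacna1a, Cacna1b, Cacna1c, Cacna1d, Cacna1e, Cacna1g, Cacna1h, Cacna1i, Cacna2d1 and Cacna2d3, in the nucleus accumbens (NAc) of male outbred Wistar rats that consumed ethanol (EtOH) or not. The genes were taken by their exact symbols from 17310 gene symbols in the count files, where all 10 were listed. RNA-seq of polyA+ RNA from the NAc core and shell gave 1 library for each of 22 rats. In experiment 1, 5 rats drank only water and 5 had continuous access to a bottle of 6% (v/v) EtOH beside water for 8 weeks. In experiment 2, all 12 rats had the 6% EtOH bottle beside water for 4 weeks, then a gavage period of 3 weeks, then 2 further weeks of bottle access. Whether the bottles stayed during the gavage period is not clearly stated. Over those 3 weeks 6 of the rats received EtOH by gavage (2.5 g/kg of a 30% v/v solution, 2 times daily) and 6 received water by gavage. No rat of experiment 2 was free of EtOH, so that comparison is of added EtOH in animals that already drank it. All rats were killed directly after the EtOH bottles were taken away, with no period of withdrawal.

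These channels open when the membrane is depolarized and let calcium into the cell, where it drives transmitter release, firing patterns and signalling to the nucleus. The pore is formed by an alpha-1 subunit, whose gene decides the current type: Cacna1c and Cacna1d encode the L-type channels that couple activity at the soma and dendrites to gene transcription, Cacna1a, Cacna1b and Cacna1e encode the P/Q-, N- and R-type channels that serve transmitter release at nerve terminals, and Cacna1g, Cacna1h and Cacna1i encode the low-voltage-activated T-type channels that support burst firing. Cacna2d1 and Cacna2d3 encode auxiliary alpha-2-delta subunits, which carry pore subunits to the membrane and, in the case of Cacna2d1, bind gabapentin. Most neurons of the NAc are GABAergic medium spiny projection neurons, in which L-type and P/Q-, N- and R-type currents have been described, and EtOH is known to inhibit several of these currents directly.

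Normalized read counts placed 0 of the 10 genes past an adjusted p of 0.05 in either experiment. Such counts are reads scaled to a common size within each experiment, with library sizes first corrected by edgeR's TMM factors. In experiment 1 the clearest separation was that of Cacna1h, a T-type pore subunit. Its 5 values in the EtOH rats all lay below the 5 values in the water rats. In edgeR's quasi-likelihood test its adjusted p was 0.541, and 0.404% of all tested genes had groups apart in this direction. In experiment 2 Cacna1h had the lowest unadjusted p of the 10 (0.0774 in the same test), again with the lower mean in the EtOH gavage rats. The groups there overlapped widely. Its log2 fold change of -0.74 became -0.24 once the fit took in how much of each library fell outside genes. The 10 genes lay on both sides of zero in each comparison, with 6 lower and 4 higher in the EtOH rats of experiment 1 and 5 lower and 5 higher in the EtOH gavage rats of experiment 2.

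The DNA just before the start of 3 of the genes is printed here. In experiment 2 Cacna1a fell as more of a library lay outside genes (Pearson's r -0.91), as described further on. Cacna1d (0.68) and Cacna2d3 (0.84) rose. By Spearman's rho the relation of Cacna1d did not pass (adjusted permutation p 0.129). Cacna2d1 had a larger r than Cacna1d (0.79), but its windows are not printed. Of all tested genes there, 26.1% had r below -0.8 and 22.8% had r above 0.8. The 3 printed genes were chosen after their values were seen. Each line holds the 250 bases upstream of the annotated start, 5′ to 3′ on the gene's own strand, in RefSeq's annotation of the GRCr8 rat assembly, with capitals marking GGGCGG or its reverse complement CCGCCC, the GC box that Sp-family factors bind. The first, at chr19:40650469-40650718 on the minus strand, is followed by chr16:5527550-5527799 and chr16:4918900-4919149, both also on the minus strand.
Cacna1a: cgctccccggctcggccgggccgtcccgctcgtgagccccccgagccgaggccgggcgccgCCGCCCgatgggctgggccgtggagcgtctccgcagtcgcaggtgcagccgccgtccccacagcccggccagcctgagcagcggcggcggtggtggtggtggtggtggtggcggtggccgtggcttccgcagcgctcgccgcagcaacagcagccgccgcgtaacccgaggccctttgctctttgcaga
Cacna1d: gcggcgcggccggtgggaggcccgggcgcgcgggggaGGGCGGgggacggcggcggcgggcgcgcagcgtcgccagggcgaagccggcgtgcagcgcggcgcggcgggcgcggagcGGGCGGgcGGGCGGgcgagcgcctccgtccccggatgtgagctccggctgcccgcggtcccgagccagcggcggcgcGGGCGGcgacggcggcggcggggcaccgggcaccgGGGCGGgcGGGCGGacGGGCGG
Cacna2d3: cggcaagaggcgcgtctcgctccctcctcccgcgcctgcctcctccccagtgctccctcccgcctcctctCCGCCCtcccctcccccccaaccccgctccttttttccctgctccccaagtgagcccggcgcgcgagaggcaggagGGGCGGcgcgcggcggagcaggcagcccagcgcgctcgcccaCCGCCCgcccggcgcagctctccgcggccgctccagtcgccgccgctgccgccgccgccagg
The Cacna1a window had a GC content of 76.8%, 34 CpG dinucleotides and 1 match. The Cacna1d window had 88.8% GC, 56 CpG and 7 matches, and that of Cacna2d3 had 78.8% GC, 34 CpG and 3 matches. Over all 33469 windows of the same length, 30.5% held the motif on either strand, the median GC content was 51.2% and the median number of CpG was 5. Of the 10 genes, 7 had a window and 5 of those held the motif, while Cacna1g, Cacna1h and Cacna1i had no entry. The windows of Cacna1c (54.4% GC, 3 CpG) and Cacna1e (51.2% GC, 6 CpG) held no match. Cacna1b, which went clearly in neither direction, had 3 matches, and the windows of Cacna2d1 had 6, 3 and 3. Whether the matches bear any relation to the directions was not tested.

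Libraries held between 2962291 and 5247386 reads on genes in experiment 1, and between 6713617 and 8765472 in experiment 2. The 10 genes together took 4803 to 9441 reads per library in experiment 1 and 11088 to 17061 in experiment 2, or 0.160% to 0.205% and 0.144% to 0.195% of the reads on genes. Rats of experiment 1 were alike, with a median correlation of each library with its own group of 0.976 to 0.983, whereas in experiment 2 it ranged from 0.873 to 0.974. There 4 libraries stood apart with a correlation under 0.94, namely water gavage rats 1 and 5 and EtOH gavage rats 1 and 2, and the results of experiment 2 are also given without them. These 4 also had the highest shares of reads outside annotated genes, from 52.8% to 58.0% against 46.1% to 51.7% in the other 8. Values with ± are the mean and SD over the rats of a group. Markers of the medium spiny neurons were present in all rats, with Drd1 at 803 to 1815 normalized counts in experiment 1 and 3249 to 6174 in experiment 2, and no marker of the 9 cell type lists was at 0 in a whole experiment.

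**Figure D1:**
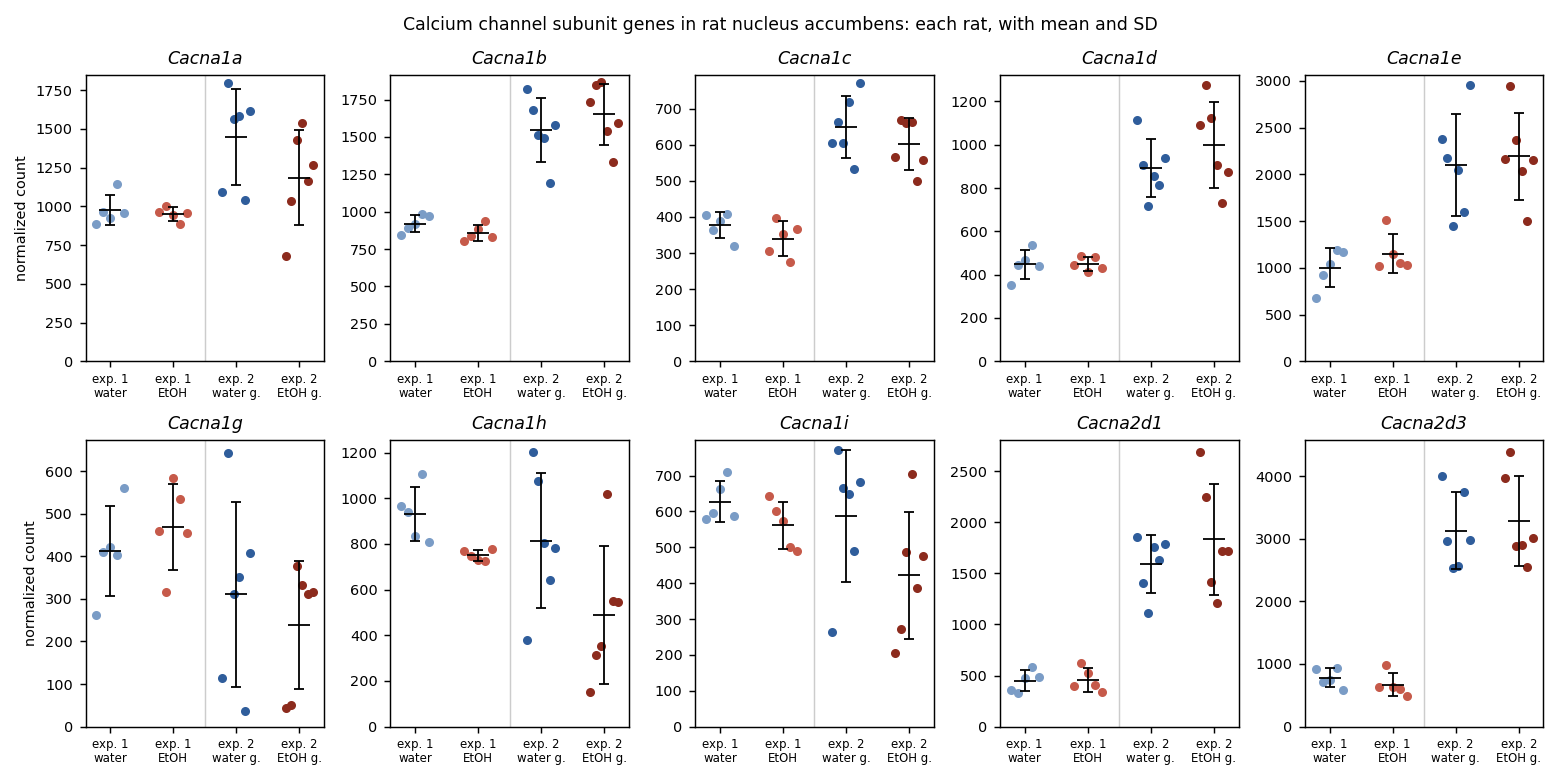
Normalized read counts (y axis, starting at 0) of the 10 calcium channel subunit genes in each of 22 rats, in 4 groups along the x axis (g. is gavage); horizontal bars are group means and error bars are SD over 5 rats per group in experiment 1 and 6 in experiment 2. In Cacna1h the 5 EtOH rats of experiment 1 (726 to 778) lie below the 5 water rats (809 to 1105), while in experiment 2 Cacna1g runs from 37.0 to 644 and Cacna1h from 152 to 1204 with overlapping groups.

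The comparison of EtOH with water drinking in experiment 1 asked whether voluntary intake over weeks changed the NAc transcriptome. Among 8655 genes tested, 0% passed an adjusted p of 0.05 in edgeR's quasi-likelihood test and DESeq2 also called 0, while 5.58% had an unadjusted p under 0.05, 2.58% with EtOH lower. Of the 10 subunit genes, 0 passed the adjusted threshold and 1, Cacna1h, had an unadjusted p under 0.05, with EtOH lower. The lowest adjusted p of any gene was 0.536 in edgeR and 0.122 in DESeq2, which adjusted over 14022 genes. The study's own DESeq2 run on these rats reported lower values, with none under 0.05.

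Among the T-type genes, Cacna1h, which is expressed in many neurons with low-threshold bursts, had normalized counts of 968, 940.3, 834, 1105 and 809 in water rats 1 to 5. In EtOH rats 1 to 5 they were 769.8, 748, 729, 726 and 778. The EtOH values were close together and all lay under the lowest water value. The means were 931 ± 118 (SD, n = 5) and 750.04 ± 23.7 (SD, n = 5), which is 19.3% lower with EtOH (log2 fold change -0.31, standard error, SE, 0.08). In edgeR's quasi-likelihood test the unadjusted p was 0.00131, rank 20 of the 8655 genes, and the adjusted p was 0.541. Groups that did not overlap, with EtOH lower, were seen in 0.404% of all tested genes and in 1 of the 10 subunit genes. Over the other ways of fitting and over the rats left out in turn, the log2 fold change of Cacna1h lay between -0.36 and -0.22, with an adjusted p of 0.104 or more. Where all 4 groups shared one estimate of the spread, the unadjusted p in edgeR was 0.341.

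Cacna1i, the T-type gene that is most restricted to the brain, had counts of 578, 596, 664, 711 and 587 in the water rats. In the EtOH rats they were 642, 601, 573, 499.8 and 490.3. The log2 fold change was -0.16 (SE 0.09), with EtOH rats 3, 4 and 5 below every water rat and rats 1 and 2 within their range. Cacna1g, the T-type gene of thalamic burst firing, lay the other way, at 262, 411, 422, 404 and 562 in water rats and 459, 317, 584, 535 and 455 in EtOH rats. Its log2 fold change was 0.18 (SE 0.17), with water rat 1 the lowest of the 10 and EtOH rat 3 the highest. The unadjusted p was 0.0824 for Cacna1i and 0.315 for Cacna1g, with adjusted p of 0.875 and 0.945 in edgeR.

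The L-type genes overlapped between the groups. Cacna1c, which encodes the main L-type channel of brain and heart, had 406, 365, 388, 408 and 320.4 counts in water rats and 307, 397, 354, 276 and 366 in EtOH rats (log2 fold change -0.14, SE 0.10). Cacna1d, whose channels open at less depolarized voltages, had 353, 444, 468, 535 and 438 in water rats and 443, 484, 413, 480.3 and 431 in EtOH rats. Its means were 448 ± 65.6 and 450.3 ± 31.1 (SD, n = 5 each), a log2 fold change of 0.01 (SE 0.09).

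The release-site channel genes were also within the spread of the rats. Cacna1a, the P/Q-type pore, had 885, 962, 927, 1142 and 959 counts in water rats and 961, 1003, 945, 885 and 955 in EtOH rats (log2 fold change -0.04, SE 0.07). Cacna1b, the N-type pore, had 842, 888, 916, 984 and 970.1 in water rats and 801, 839, 885, 935 and 833 in EtOH rats (log2 fold change -0.10, SE 0.06). In Cacna1b 4 of 5 EtOH rats were below the water median of 916, with EtOH rats 1, 2 and 5 under every water rat and the other 2 inside the water range. Cacna1e, the R-type pore, had 680.1, 921, 1045, 1190.4 and 1171 in water rats and 1014, 1511, 1142, 1053 and 1034 in EtOH rats. Water rat 1 and EtOH rat 2 set the ends of that range, and the log2 fold change was 0.20 (SE 0.14).

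Of the auxiliary subunits, Cacna2d1 had 358, 332, 474, 583 and 488 counts in water rats and 394, 625.2, 521, 402 and 336 in EtOH rats, with a log2 fold change of 0.03 (SE 0.17). Cacna2d3 had 925, 708, 747, 941 and 576 in water rats and 636, 981, 635, 598 and 485 in EtOH rats. EtOH rat 2 alone was above the water rats and the other 4 EtOH rats were below the water median, and the log2 fold change was -0.22 (SE 0.16). Without EtOH rat 2 it was -0.40, with an unadjusted p of 0.00797 and an adjusted p of 0.513 in edgeR. The 7 genes other than the T-type group had unadjusted p between 0.138 and 0.938 and adjusted p between 0.911 and 0.996 in edgeR.

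Over the 10 genes the median log2 fold change in experiment 1 was -0.07, beside 0.00 over all genes tested, and 50.5% of all tested genes were lower in the EtOH rats against 6 of the 10. The median size of the log2 fold change without its sign was 0.15 for the 10 genes and 0.07 for all genes, and the median SE of all genes was 0.11. Levels of cell type markers are given alongside. They are in CPM, which are counts scaled to one fixed total after the same TMM correction of library sizes. The summed level of 7 neuroblast markers was 236 to 297 CPM in water rats and 306 to 416 CPM in EtOH rats. Dcx (log2 fold change 0.39, SE 0.09), Dlx1 (0.76, SE 0.19) and Cd24 (0.55, SE 0.13) were higher at an unadjusted p under 0.05 in edgeR. Dlx5, the fourth one tested, was at -0.21 (SE 0.19). Of 12 markers of medium spiny neurons 10 were lower, with Drd1, the dopamine D1 receptor gene, at 1439 ± 350.3 and 1015 ± 254 counts (log2 fold change -0.50, SE 0.17), while their summed level overlapped at 3361 to 5734 and 3013 to 5866 CPM. Vascular markers summed to 307 to 360 CPM in water rats and 336 to 417 CPM in EtOH rats, with Cldn5 (0.20), Flt1 (0.21) and Col1a1 (0.64) higher, and 6 choroid plexus and ependymal markers to 12.8 to 49.8 and 37.8 to 66.8 CPM, with Foxj1 at 0.65. Cux2 (-0.70), Etv1 (0.44), Chat (-0.63), Trpc4 (0.61) and Prkcd (0.75) were the other markers with an unadjusted p under 0.05 in edgeR, and 0 markers passed an adjusted p of 0.05. The study itself lists Cux2, Etv1, Dcx, Dlx1 and Cd24 among its lowest p-values for these same rats, so their values here are no separate evidence. The part of the cell type markers in the values of Cacna1h and the other genes was not tested. In RNA from whole tissue, fewer cells of a type and less RNA per cell cannot be told apart.

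The comparison in experiment 2 asked whether EtOH forced by gavage changed expression in rats that also drank. Of all 8655 genes tested, 0% passed an adjusted p of 0.05 in edgeR, DESeq2 again called 0, and 1.33% had an unadjusted p under 0.05, 0.624% with EtOH gavage lower. Of the 10 subunit genes, 0 passed either threshold, and 0 had groups that did not overlap, beside 0.0116% of all genes. The lowest adjusted p of any gene was 0.675 in edgeR and 0.806 in DESeq2, which adjusted over 14110 genes.

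Cacna1h had normalized counts from 381 to 1204 (median 793) in the 6 water gavage rats, and from 152 to 1019 with a median of 449 in the 6 EtOH gavage rats. In 5 of 6 EtOH gavage rats the count was below the water gavage median, and EtOH gavage rat 4, at 1019, was above 4 of the 6 water gavage rats. The means were 815 ± 296 and 489 ± 300.4 (SD, n = 6 each), with a log2 fold change of -0.74 (SE 0.39). The unadjusted p in edgeR was 0.0774 and the adjusted p 0.675. Without EtOH gavage rat 4 the log2 fold change was -1.09 with an unadjusted p of 0.00791 (adjusted p 0.398), and with the share of reads outside genes as a covariate it was -0.24 with an unadjusted p of 0.223.

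Cacna1i followed the same rats. Its counts ran from 263 to 772 with a median of 658 in water gavage rats and from 205 to 704 with a median of 432 in EtOH gavage rats, with 5 of 6 EtOH gavage rats below the water gavage median. The log2 fold change was -0.48 (SE 0.30), with an unadjusted p of 0.136 and an adjusted p of 0.675. With the outside share as a covariate it was -0.05. Cacna1g ran from 37.0 to 644 with a median of 332 in water gavage rats and from 42.9 to 377 with a median of 314 in EtOH gavage rats. Its highest value was 17.4 times its lowest, because the 4 libraries that stood apart held 37.0 to 114 counts and the other 8 held 311 to 644. The log2 fold change of -0.38 had an SE of 0.64, larger than that of 99.0% of all genes tested, and turned to 0.57 with the outside share as a covariate.

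The L-type genes were steadier. Cacna1c had 532 to 770.1 counts, with a median of 635, in water gavage rats and 499 to 670.004 counts, with a median of 613, in EtOH gavage rats (log2 fold change -0.11, SE 0.12). Cacna1d had 719 to 1114, with a median of 879.7, and 733 to 1278, with a median of 999 (log2 fold change 0.17, SE 0.15). The highest Cacna1d values were those of EtOH gavage rats 1, 2 and 3 and water gavage rat 1.

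Among the release-site genes, Cacna1a ran from 1043 to 1795 with a median of 1571 in water gavage rats and from 679.8 to 1536 with a median of 1213 in EtOH gavage rats. All 6 EtOH gavage rats lay below the water gavage median, but water gavage rats 1 and 5 lay low as well, and the log2 fold change of -0.29 (SE 0.20) moved to -0.02 with the outside share as a covariate. Cacna1b ran from 1192 to 1821 with a median of 1545, and from 1332 to 1864 with a median of 1662 (log2 fold change 0.09, SE 0.12). Cacna1e ran from 1451 to 2954.5 with a median of 2109, and from 1505 to 2942.6 with a median of 2158 (log2 fold change 0.06, SE 0.19).

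For the auxiliary subunits, Cacna2d1 ran from 1109 to 1859.5 with a median of 1697 in water gavage rats and from 1206 to 2692 with a median of 1719 in EtOH gavage rats (log2 fold change 0.20, SE 0.19). Only EtOH gavage rats 1 and 2 exceeded every water gavage rat. Cacna2d3 ran from 2529 to 4003 with a median of 2973, and from 2553 to 4384 with a median of 2954 (log2 fold change 0.07, SE 0.16). With the outside share as a covariate the log2 fold changes of Cacna2d1 and Cacna2d3 were -0.07 and -0.15. The 7 genes other than the T-type group had unadjusted p between 0.164 and 0.742 and adjusted p between 0.675 and 0.870 in edgeR.

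The median log2 fold change of the 10 genes in experiment 2 was -0.02, beside 0.00 over all genes, with 5 of 10 lower in the EtOH gavage rats beside 49.9% of all genes, and its median size without sign was 0.18 beside 0.19. Without the 4 libraries that stood apart, Cacna1a (log2 fold change -0.25), Cacna1h (-0.62) and Cacna1i (-0.41) had an unadjusted p under 0.05, as did 940 of the 8655 genes, or 10.9%, and 0 of the 10 passed the adjusted threshold. Of the cell type markers, Adora2a, an adenosine receptor gene of medium spiny neurons, was the one with an unadjusted p under 0.05, at 1233 ± 424 and 850.001 ± 234 counts (log2 fold change -0.54, SE 0.24). The 12 medium spiny neuron markers summed to 4615 to 8883 CPM in water gavage rats and 4583 to 6337 CPM in EtOH gavage rats, and 8 oligodendrocyte markers to 9729 to 16364 and 8828 to 11973 CPM. What these markers contributed to the subunit genes was not tested.

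**Figure D2:**
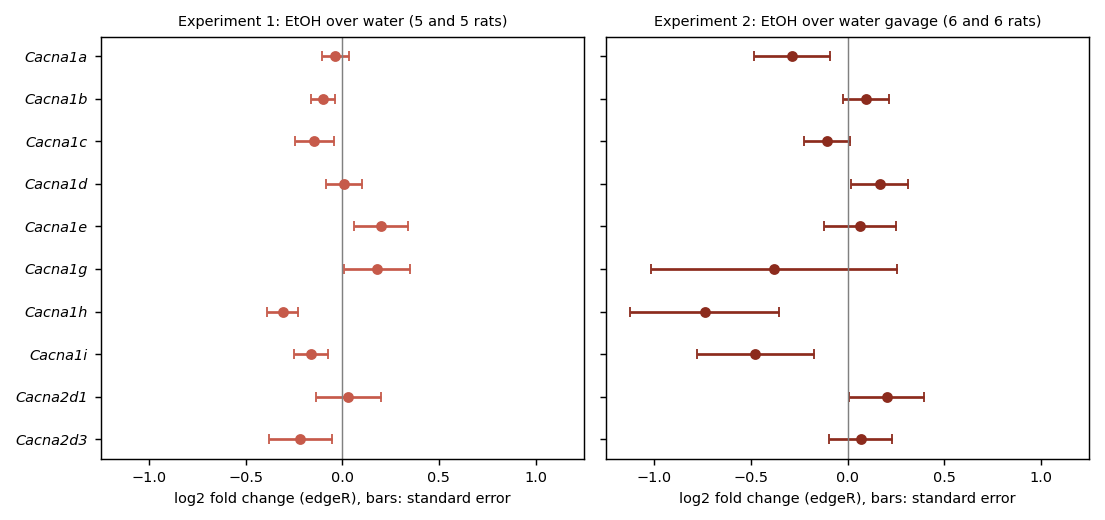
Log2 fold change of each subunit gene (x axis) from edgeR, for EtOH over water in experiment 1 (left, 5 and 5 rats) and EtOH gavage over water gavage in experiment 2 (right, 6 and 6 rats); points are the estimates and bars are 1 SE on each side. In experiment 1 only Cacna1h (-0.31, SE 0.08) stands several SE from zero, and in experiment 2 the T-type genes have the widest bars, up to 0.64 for Cacna1g.

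Set side by side, 4 genes were lower in the EtOH groups of both experiments (Cacna1a, Cacna1c, Cacna1h and Cacna1i) and 3 were higher in both (Cacna1d, Cacna1e and Cacna2d1), while Cacna1b, Cacna1g and Cacna2d3 had opposite signs. Of the 8176 genes tested in both experiments, 53% had the same sign and 27.2% were lower in both. The difference between the effects was tested with an interaction term, in which 0% of genes passed an adjusted p of 0.05 and 1.88% had an unadjusted p under 0.05. None of the 10 genes passed either threshold in edgeR. Cacna1h differed by -0.42 (SE 0.45) on the log2 scale between the experiments, with an unadjusted p of 0.362 and an adjusted p of 0.813. Cacna1b differed by 0.20 (SE 0.14) with an adjusted p of 0.813, the lowest unadjusted p of the 10 genes being 0.175. The controls of experiment 2 drank EtOH and those of experiment 1 did not, so the term compares unlike contrasts.

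Ratios between genes of the same or the nearest class do not depend on library scaling. In experiment 2 paired genes could relate differently to the share of reads outside annotated genes, such as Cacna1a (Pearson's r -0.91) and Cacna1b (0.32). That share was higher on average in the EtOH gavage rats, and its part in the ratios was not tested. For the L-type pair, the log2 ratio of Cacna1c to Cacna1d reads was -0.24 ± 0.26 in water rats and -0.41 ± 0.25 in EtOH rats (SD, n = 5 each), and -0.45 ± 0.25 and -0.72 ± 0.20 (SD, n = 6 each) in the water gavage and EtOH gavage rats. In both experiments the mean was lower with EtOH, by 0.18 and by 0.26, with overlapping groups. The exact two-sided permutation p was 0.349 and 0.0779. For P/Q- over N-type, the log2 ratio of Cacna1a to Cacna1b was 0.08 ± 0.09 and 0.15 ± 0.14 in experiment 1, and -0.11 ± 0.33 and -0.52 ± 0.49 in experiment 2. These differences of 0.07 and -0.40 had exact permutation p of 0.405 and 0.121. For R- over P/Q-type, the log2 ratio of Cacna1e to Cacna1a was 0.02 ± 0.26 and 0.26 ± 0.20 in experiment 1 and 0.53 ± 0.44 and 0.91 ± 0.55 in experiment 2, higher with EtOH by 0.25 and 0.38 (exact permutation p 0.143 and 0.201). The T-type ratio of Cacna1i to Cacna1g differed by -0.36 in experiment 1 and -0.15 in experiment 2, and that of Cacna2d1 to Cacna2d3 by 0.26 and 0.11, with exact permutation p from 0.198 to 0.833. After adjustment over the 10 ratio tests every p was between 0.384 and 0.833, where the smallest p that the designs allow was 0.00794 and 0.00216.

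The level of several genes followed the share of reads that fell outside annotated genes, a property of each library. In experiment 2 this share was 50.1 ± 3.09% in water gavage rats and 52.9 ± 3.42% in EtOH gavage rats (SD, n = 6 each), against 49.5 ± 0.996% and 49.5 ± 0.722% (SD, n = 5 each) in the water and EtOH rats of experiment 1. Over the 12 rats of experiment 2, the log2 CPM of Cacna1h fell as the share rose, with Pearson's r of -0.92 and Spearman's rho of -0.94 (permutation p 1e-05, the smallest that 100000 permutations can give, adjusted p 0.000133 over 20 relations). Cacna1a (r = -0.91, rho = -0.92, permutation p 2e-05) and Cacna1i (r = -0.92, rho = -0.87, permutation p 2e-05) went the same way at the same adjusted p, and Cacna1g had r = -0.86 and rho = -0.70 (permutation p 0.0005, adjusted p 0.00244). Cacna2d3 (r = 0.84, rho = 0.76, adjusted p 0.00244), Cacna2d1 (r = 0.79, rho = 0.71, adjusted p 0.0085) and Cacna1d (r = 0.68, rho = 0.58, adjusted p 0.038) went up with the share. These adjusted p belong to r, and by rho 6 of the 7 passed, with Cacna1d at an adjusted permutation p of 0.129. Cacna1b (r = 0.32), Cacna1c (r = -0.26) and Cacna1e (r = 0.34) did not pass.

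This behaviour was shared by much of the transcriptome. Of all 8655 tested genes in experiment 2, 26.1% had r below -0.8, as did 4 of the 10 subunit genes, and 22.8% had r above 0.8, as did Cacna2d3. With group means removed, 6 of the 7 relations by r remained past an adjusted p of 0.05 by permutation, Cacna1d (r = 0.63, adjusted p 0.0729) being the exception. Leaving out the 2 rats farthest from the median share kept Cacna1a (r = -0.84), Cacna1h (r = -0.83) and Cacna1i (r = -0.82), each at an adjusted permutation p of 0.0224 for r. By rho Cacna1i (adjusted permutation p 0.0707) did not pass there. In those 10 rats Cacna1g (r = -0.72) and Cacna2d3 (r = 0.72) had an adjusted permutation p of 0.0826, and Cacna1d (r = 0.45) and Cacna2d1 (r = 0.50) of 0.423 and 0.419, so these 4 no longer passed, the last 2 with a clearly smaller r. Among the 8 libraries without the 4 that stood apart, 0 relations passed by Pearson's r after adjustment over 10 and 1, that of Cacna1h, passed by Spearman's rho. Its r was -0.84 (permutation p 0.00843, adjusted p 0.0843) and its rho -0.98 (permutation p 0.00037, adjusted p 0.0037). The share was higher on average in the EtOH gavage group, and with it as a covariate the log2 fold changes of Cacna1a, Cacna1h and Cacna1i were the -0.02, -0.24 and -0.05 given above.

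In experiment 1, where the share spanned 48.4% to 51.1%, 0.589% of all genes had r below -0.8, as did 1 of the 10, and 0.728% had r above 0.8, as did 0. By Pearson's r Cacna1e passed (r = -0.81, adjusted permutation p 0.0193) but not by Spearman's rho (rho = -0.61, adjusted permutation p 0.15), and the reverse held for Cacna1a (r = -0.59, adjusted permutation p 0.188; rho = -0.81, adjusted permutation p 0.0301). For Cacna1e without the 2 rats farthest from the median the r was -0.70 with an adjusted p of 0.187. Cacna1h had r = 0.14 there, and its log2 fold change was -0.31 with the share as a covariate.

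**Figure D3:**
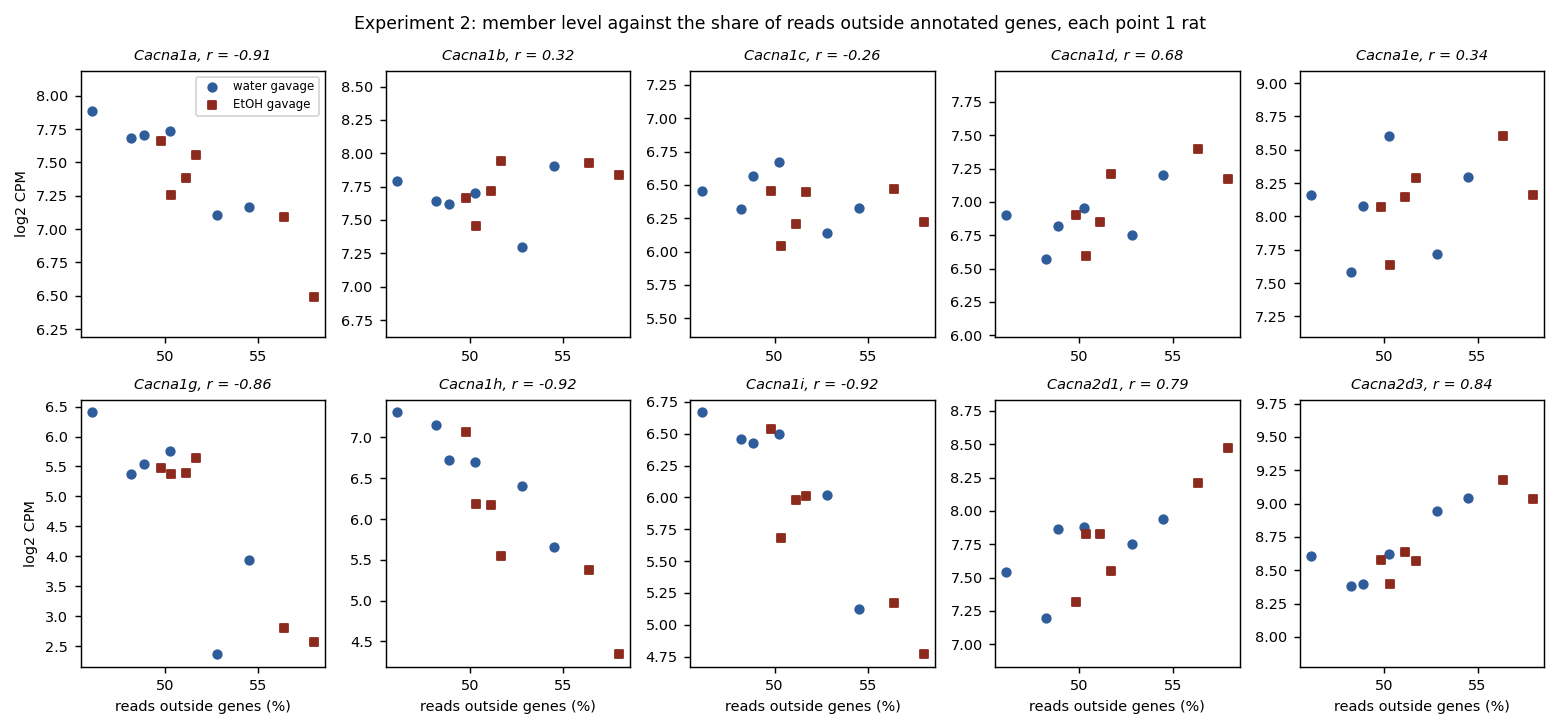
Log2 CPM of each subunit gene (y axis, with its own range in each panel) against the percentage of reads outside annotated genes (x axis) in the 12 rats of experiment 2; circles are water gavage and squares EtOH gavage, each point 1 rat, with Pearson's r in the panel title. Cacna1a, Cacna1g, Cacna1h and Cacna1i descend (r from -0.92 to -0.86) and Cacna1d, Cacna2d1 and Cacna2d3 ascend (r from 0.68 to 0.84), with rats of both groups at high shares.

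How the reads divided over the 10 genes also differed between the experiments. Cacna2d3 held a median of 10.3% of the reads on the 10 genes in experiment 1 (7.86% to 14.8%) and 23.2% in experiment 2 (19.98% to 31.9%). Cacna2d1 held 6.59% (5.05% to 8.33%) and 13.7% (9.40% to 20.2%). The reverse held for Cacna1h, at 12.05% (9.97% to 15.5%) and 5.26% (1.14% to 9.33%), and for Cacna1i, at 8.71% (7.82% to 9.99%) and 3.99% (1.54% to 5.77%). For these 4 genes the 10 libraries of experiment 1 and the 12 of experiment 2 did not overlap. Cacna1g, at 6.70% (4.18% to 8.61%) and 2.65% (0.316% to 4.53%), had a lower median in experiment 2 with a narrow overlap. The same held for Cacna1a, at 14.0% (13.4% to 15.5%) and 10.9% (5.11% to 13.5%). Cacna1e, with medians of 16.1% in each, and Cacna1b, at 13.4% and 12.3%, overlapped more widely. The experiments differ in library type, read length, sequencer and exposure together, so these cannot be told apart and no test was made. Shares of reads also depend on gene length, and per-length levels were not used here.

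**Figure D4:**
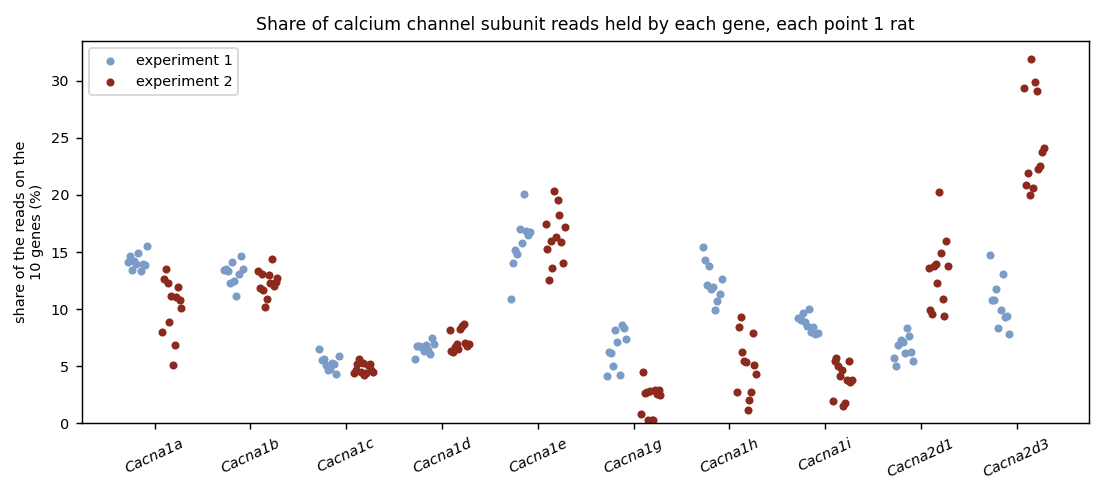
Share of the reads on the 10 subunit genes that each gene held (y axis, percent), with each point 1 rat, 10 in experiment 1 and 12 in experiment 2. Cacna2d1 and Cacna2d3 sit higher in every library of experiment 2 and Cacna1h and Cacna1i lower. Cacna1a and Cacna1g have lower medians in experiment 2 with a narrow overlap, while Cacna1b, Cacna1c, Cacna1d and Cacna1e overlap more widely.

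Beyond the 10 genes, 16 further subunit genes of the family were listed, of which 10 were expressed above the filter and 6 (Cacna1f, Cacna1s, Cacna2d4, Cacng1, Cacng5 and Cacng6) were below it in both experiments. Of the 10 tested, 8 were lower and 2 higher in the EtOH group of each experiment, beside 50.5% and 49.9% of all tested genes lower. The genes were not the same throughout, as Cacnb2 and Cacng8 had opposite signs in the 2 experiments. The tested genes include the gamma-type genes Cacng2, Cacng3, Cacng4, Cacng7 and Cacng8. The median log2 fold change was -0.06 in experiment 1 and -0.33 in experiment 2, and 0 passed an adjusted p of 0.05 in edgeR. In experiment 2 the share of reads outside genes was higher on average in the EtOH gavage rats. Of all tested genes there, 26.1% had r below -0.8 with that share. Its part in the values of these further subunit genes was not tested. Cacnb1, Cacnb3 and Cacnb4 encode beta subunits, which bind the pore inside the cell and help it reach the membrane. Cacnb1 was at 894 ± 81.5 and 809 ± 74.5 counts in experiment 1 (log2 fold change -0.14, SE 0.08) and at 989 ± 338 and 709 ± 245 in experiment 2 (-0.48, SE 0.26). Cacnb3 had log2 fold changes of -0.13 (SE 0.08) and -0.55 (SE 0.33), and Cacnb4 of 0.00 (SE 0.11) and 0.23 (SE 0.21). The remaining beta subunit gene, Cacnb2, named after its values were seen, had -0.05 (SE 0.10) and 0.29 (SE 0.23). Cacng3, a gamma-type subunit that traffics AMPA receptors, was the one with an unadjusted p under 0.05, in experiment 2, at 514 ± 103 and 389 ± 85.9 counts (log2 fold change -0.40, SE 0.18, adjusted p 0.675).

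Genes that act beside the channels gave few differences. Of 14 partners at release sites, all tested, 11 were lower and 3 higher in experiment 1 and 8 lower and 6 higher in experiment 2. In edgeR 0 had an unadjusted p under 0.05 in either. Of all tested genes, 50.5% were lower in experiment 1 and 49.9% in experiment 2, and 5.58% and 1.33% had an unadjusted p under 0.05. Snap25, for a protein of vesicle fusion, was among the 3 most highly counted of them and had log2 fold changes of -0.01 (SE 0.06) in experiment 1 and 0.16 (SE 0.15) in experiment 2. Of 15 listed genes of calcium extrusion, stores and buffering, 8 were higher and 7 lower in experiment 1, where Slc8a1, a sodium-calcium exchanger, was at 440.4 ± 55.0 and 531 ± 94.7 counts (log2 fold change 0.27, SE 0.11) and Pvalb, a calcium buffer of fast-spiking interneurons, at 85.3 ± 30.3 and 55.9 ± 17.4 (-0.57, SE 0.24), both at an adjusted p of 0.866 in edgeR. In experiment 2, 14 were tested, 8 lower and 6 higher, and 0 had an unadjusted p under 0.05. There the log2 fold change was 0.05 (SE 0.22) for Slc8a1 and 0.00 (SE 0.30) for Pvalb. Atp2a2, the calcium pump of the endoplasmic reticulum, had log2 fold changes of 0.06 and -0.04, Itpr1, a calcium release channel, of 0.03 and -0.13, and Atp2b1, a plasma membrane pump, of 0.01 and -0.01.

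Within groups, the genes whose log2 CPM was most like the mean standardized level of the 10 subunit genes were Lmtk2 (Pearson's r = 0.967), Celsr2 (0.960), Copg1 (0.959), Ppp2r2c (0.953) and Speg (0.952) over the 10 rats of experiment 1. Over the 12 rats of experiment 2 they were Btrc (0.936), Arfgef2 (0.927), Snrk (0.915), Grid1 (0.896) and Ptprt (0.876). No gene stood in both lists. The subunit genes themselves tracked their own mean unevenly, from r = 0.05 for Cacna1g to 0.89 for Cacna1a in experiment 1 and from -0.04 for Cacna2d1 to 0.92 for Cacna1c in experiment 2. All points of one experiment share its libraries and scaling, and these correlations are descriptions.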

How the data were processed

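NAc tissue of 22 rats was sequenced by the authors from polyA+ libraries, not strand-specific in experiment 1 and strand-specific in experiment 2. Per the submitters' processing notes and the study's methods, reads were aligned to Rnor_6.0 (rn6) with TopHat2 2.0.13 and assigned to genes with HTSeq. The deposited values are raw read counts per gene symbol, without normalization; reads aligned to several places are outside the gene counts, and htseq-count options and annotation are not given in the sources used here. Without strand, reads of overlapping antisense genes cannot be told apart in experiment 1.

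Each experiment was fitted alone in edgeR 4.0.16 (R 4.3.3) with TMM factors, estimateDisp, glmQLFit and glmQLFTest, on the 8655 genes whose mean level exceeded the median over those listed, with Benjamini-Hochberg adjustment over all of them. SEs follow from the estimate and its F value. Log2 CPM used a prior count of 2. Ratios of counts used a pseudocount of 0.5 and exact two-sided permutation, and relations with the outside share 100000 permutations. DESeq2 1.42.0, its size factors, library size only, other filters, the replicate number as a block, the outside share or 1 surrogate variable (sva 3.50.0) as a covariate, all groups in one fit, the newer glmQLFit mode and each rat left out in turn were alternatives. Fits were tested on simulated data. Replicates of a group differed by more than sampling noise (chi-square per degree of freedom of at least 2.67).

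The 10 genes, the lists and the markers were chosen with earlier results of these data known. Named in the text are all 10 genes, list genes with an unadjusted p under 0.05 or among the 3 highest in level, markers with an unadjusted p under 0.05, and the 5 genes most like the 10 in pattern, except for release-site list genes whose values are not reported here. Setting aside 4 libraries of experiment 2, and the printed windows, were chosen after seeing the data.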

Additional observations from a re-analysis of the deposited data

Results flagged for a closer look

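Of 64 groups of values scanned, 4 held a rat far from the rest of its group by Dixon's criterion, where chance flags about 1 in 20, or 3.2 of 64. The log2 ratio of Cacna1c to Cacna1d was 0.20 in water rat 1 of experiment 1, against -0.45 to -0.27 in the other 4. Cacna1e had 1511 normalized counts in EtOH rat 2 of experiment 1, against 1014 to 1142 in the others of its group. The log2 ratio of Cacna1a to Cacna1b was -0.74 in water gavage rat 1, against -0.19 to 0.10 in the other 5. In water gavage rat 5 the log2 ratio of Cacna1i to Cacna1g was 3.71, against 0.26 to 1.20, with Cacna1g at 37.0 counts. Both of these water gavage rats were among the 4 libraries that stood apart.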

How the results depend on the processing

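Calls at an adjusted p of 0.05 stayed at 0 of 10 in both experiments and in the interaction under every alternative run. The count of subunit genes at an unadjusted p under 0.05 was 1 in experiment 1, beside 5.58% of all genes. It was 2 with the outside share as a covariate (Cacna1e added, 6.1% of all genes) and 2 with 1 surrogate variable (Cacna1b added, 4.38%). With all 4 groups in one fit it was 0 (0.913%). With each rat left out it was 1 to 2, being 2 without EtOH rat 1 (Cacna1i added, 5.78%) or EtOH rat 2 (Cacna2d3 added, 7.58%). In experiment 2 the count was 0, beside 1.33% of all genes. It was 1 with all 4 groups in one fit (7.2% of all genes) and 3 without the 4 libraries that stood apart (10.9%). With each rat left out it was 0 to 2, where 30 to 776 of all genes passed that level. It was 2, Cacna1h and Cacna1i, without water gavage rat 1 (8.97% of all genes) or EtOH gavage rat 4 (8.87%). The replicate number as a block gave 1 in experiment 1 and 2 in experiment 2 (Cacna1h -0.87, Cacna1i -0.50), beside 476 and 414 of all genes, against 483 and 115 without it. Of same-numbered pairs, 1 of 5 in experiment 1 and 4 of 6 in experiment 2 (from -0.76 to 0.84) had deviations correlated over 0.1. As this did not hold for every pair, and the labels tie no animals by number, the numbers were not taken as pairs.

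Signs turned, with no cause tested, as follows. With 1 surrogate variable, Cacna1d was -0.031, Cacna1g -0.16, Cacna2d1 -0.046 and Cacna2d3 0.036 in experiment 1, and Cacna1g 0.41, Cacna2d1 -0.045 and Cacna2d3 -0.10 in experiment 2. With the outside share as a covariate in experiment 2, Cacna1e was -0.043, Cacna1g 0.57, Cacna2d1 -0.066 and Cacna2d3 -0.15. Without the 4 libraries that stood apart, Cacna1e was -0.074 and the ratio of Cacna2d1 to Cacna2d3 differed by -0.031. With each rat left out, the ranges that crossed zero were, in experiment 1, Cacna1a -0.069 to 0.025, Cacna1d -0.063 to 0.075 and Cacna2d1 -0.11 to 0.14; in experiment 2, Cacna1e -0.038 to 0.18, Cacna2d3 -0.030 to 0.15 and the ratio of Cacna1i to Cacna1g -0.40 to 0.33; and for the difference between experiments, Cacna1c -0.021 to 0.11. Relations with the outside share past an adjusted p of 0.05 by Pearson's r went from 1 to 0 in experiment 1 and from 7 to 3 in experiment 2 without the 2 rats farthest from the median share, and to 0 without the 4 libraries (by Spearman's rho from 6 to 2 and to 1, Cacna1h); in experiment 1 the r of Cacna1c (0.021), Cacna1g (0.22) and Cacna2d3 (-0.36) changed sign there. Of the remaining settings, 349 values and 594 left-one-out values kept direction and side of the threshold. Levels between genes per transcript or coding length were not run, as no lengths of either kind were used here. At 2962291 to 5247386 reads on genes in experiment 1, the SE of the 10 genes was 0.06 to 0.17 on the log2 scale, and in experiment 2 it was 0.12 to 0.64 at a larger depth, where the biological coefficient of variation over all genes was 31.3% against 11.1%.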
